A study of Mus musculus with 15 samples.

Results

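The interleukin-1 (IL-1) system was followed in mouse spleen through 7 genes of the nCounter Mouse Immunology Panel. These were the ligands Il1a and Il1b, the antagonist Il1rn, the receptors Il1r1, Il1r2 and Il1rap, and the signalling inhibitor Irak3. They were taken by symbol from the 561 genes of the panel, and all 7 were among the 426 endogenous genes that passed a mean of 20 raw counts. The panel captures each mRNA with a probe pair that carries a coloured barcode, and the barcodes are counted without amplification.

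All mice were female C57BL/6J of 6 to 8 weeks. Sham mice were neither burned nor irradiated. WBIR mice received 9 Gy to the whole body (whole-body ionizing radiation) from a caesium source. RCI (radiation combined injury) mice received a contact burn of 20% of the body surface and then the same 9 Gy. They were also given an anaesthetic, morphine and fluid with the burn, and morphine in their drinking water. The methods describe a sham procedure that was the same apart from the injuries. They list none of these treatments for WBIR mice. Where burned and unburned irradiated mice are compared, the burn cannot be told apart from these treatments. If Sham mice had them, comparisons of unburned irradiated mice with Sham also differ in these treatments. The radiation cannot then be told apart from their absence. WBIR+MSC-EVs and RCI+MSC-EVs mice were injected through a vein with extracellular vesicles from mouse mesenchymal stem cells 72 hours after injury, and spleens were collected 48 hours after that. The labels name phosphate buffered saline for untreated RCI mice and no vehicle for untreated WBIR mice, and the study's text names saline. Each of the 5 groups had 3 samples. The labels do not say that the 3 are separate mice and the methods speak of triplicate runs, so p-values measure only the spread between these samples, which may be technical. Replicates of a group differed by more than counting error, with a chi-square per degree of freedom of 7.93 to 238 over the tested genes.

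IL-1α and IL-1β are inflammatory cytokines that bind the same receptor, IL-1R1, which signals with its partner IL-1RAP through MyD88 and the IRAK kinases to NF-κB. The system has several brakes. The product of Il1rn occupies the receptor without signalling, IL-1R2 is a decoy that binds ligand without a signalling domain, and IRAK3 (IRAK-M) restrains IRAK signalling in monocytes and macrophages. IL-1β is made as a precursor that needs cleavage, whereas the precursor of IL-1α is already active and can act as an alarm signal from damaged cells. The assay counted mRNA, so neither cleavage nor protein was measured.

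Il1a and Il1b lie next to each other on chromosome 2, Il1rn lies on the same chromosome, and Il1r2 and Il1r1 are neighbours on chromosome 1. The 150 bases upstream of the annotated starts of Il1a, Il1b and the first start of Il1rn are shown because the levels of the ligand pair parted in these samples while Il1b and Il1rn varied together. They come from the RefSeq annotation of mouse build GRCm38.p6 and run 5′ to 3′ on the gene's strand, with capitals marking a TATA box (TATAAA, gene strand) and an AP-1 motif (TGANTCA, either strand).
Il1a, chr2:129309973-129310122, minus strand: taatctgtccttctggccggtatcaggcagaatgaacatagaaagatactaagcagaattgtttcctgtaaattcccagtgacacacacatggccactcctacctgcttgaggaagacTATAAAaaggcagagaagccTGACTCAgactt
Il1b, chr2:129371140-129371289, minus strand: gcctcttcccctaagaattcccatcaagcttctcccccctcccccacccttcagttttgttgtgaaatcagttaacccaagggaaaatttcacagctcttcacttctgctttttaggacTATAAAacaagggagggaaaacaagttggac
Il1rn, chr2:24336710-24336859, plus strand: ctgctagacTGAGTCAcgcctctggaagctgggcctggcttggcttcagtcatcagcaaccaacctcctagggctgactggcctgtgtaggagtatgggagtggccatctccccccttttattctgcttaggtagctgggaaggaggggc

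The TATA box began at position -32 in Il1a and -31 in Il1b, counted from the start. The AP-1 letters were found at -12 in Il1a and at -141 in Il1rn, and not in this window of Il1b. The windows of the later annotated starts of Il1rn held neither motif, and no window of Il1r1, Il1r2, Il1rap or Irak3 held either. Of 32851 annotated mouse promoters, 4.84% held the TATA letters and 4.24% the AP-1 letters in a window of this length. A match describes the letters only.

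The samples held between 90127 and 598872 counts in total (median 360995), and values are given as counts scaled to the geometric mean of 14 reference genes. Markers of B cells and T cells, the main lymphocytes of spleen, were detected in all samples. The summed scaled counts of 6 B cell genes were 15320 to 16412 in Sham and 383 to 1094 in the irradiated samples, and those of 6 T cell genes were 6682 to 13497 in Sham and 1491 to 3323 after irradiation. In bulk RNA, fewer cells of a type and less RNA per cell cannot be told apart.

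RCI replicate 3 stood apart from the other samples in these genes. Relative to the mean of RCI replicates 1 and 2 it was 12.1-fold higher in Il1b, 9.44-fold in Il1rn, 8.71-fold in Il1a and 7.67-fold in Irak3, which placed these 4 genes at ranks 1, 2, 4 and 5 of the 426 tested. Ccl2, a monocyte chemokine, held rank 3. Il1r1 was 1.99-fold higher, while Il1r2 and Il1rap were at 0.746 and 0.549 of the other RCI samples. The median over all tested genes was 0.735, and 15 genes were at least 4-fold higher in this sample. Its summed count of 8 monocyte and macrophage markers was 35650.5, against 14306 and 15518 in the other RCI samples and at most 20853 elsewhere. That sum was made up mostly of Marco, a macrophage scavenger receptor, which was at 27538.7 and 7.01-fold higher. Of the 8 markers, 3 were above the mean of the other RCI samples, with Cd14 at 1.69 and Msr1 at 1.20 of it, and 5 were below, among them the macrophage receptors Csf1r (0.389) and Cd163 (0.107). Their part in the IL-1 values was not tested. Log2FC of the 7 genes that involve RCI, and differences in their ratios, are therefore given with and without this sample.

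**Figure D1:**
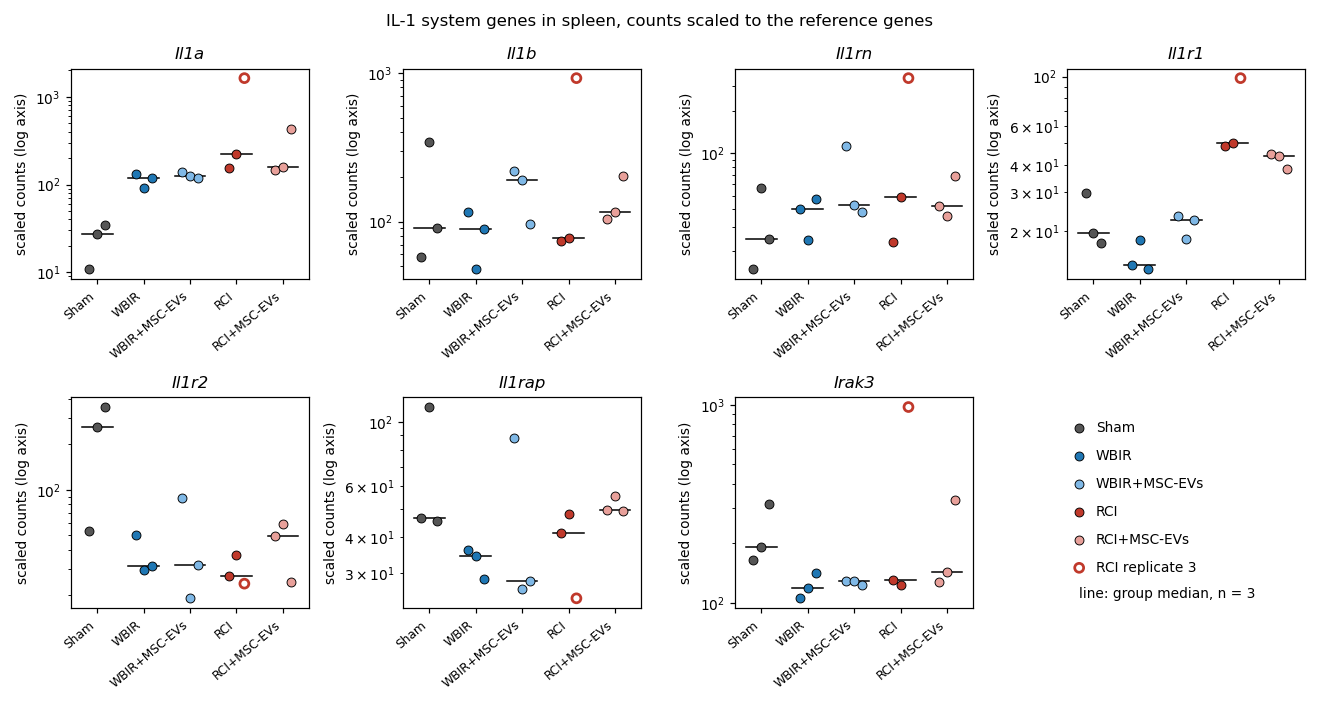
Counts scaled to the reference genes on a log axis for the 7 IL-1 genes, with 1 point per sample in 5 groups of 3, a line at the group median and an open circle for RCI replicate 3. Every irradiated sample lay above every Sham sample in Il1a, every burned sample lay above every unburned irradiated sample in Il1a and Il1r1, and the open circle was the highest point in Il1a, Il1b, Il1rn, Il1r1 and Irak3. The share of all tested genes with such separation was not counted.

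Il1a, the ligand that is active as a precursor, rose in all 4 irradiated groups. Scaled counts were 10.8, 26.9 and 34.6 in Sham, and 133, 92.1 and 119.6 in WBIR. They were 138, 125 and 118 in WBIR+MSC-EVs. They were 153, 222 and 1634 in RCI, and 148, 159.8 and 435 in RCI+MSC-EVs. All 12 irradiated samples lay above all 3 Sham samples, and all 6 burned samples lay above all 6 that were irradiated without a burn. The share of all tested genes with such separation was not counted, here or for the other members. The mean rose from 24.1 ± 12.1 (SD, n = 3) in Sham to 115 ± 20.6 in WBIR, a log2 fold change (log2FC) of 2.26 ± 0.80 (SE) with an edgeR adjusted p of 0.0218. In RCI the log2FC against Sham was 4.81 ± 0.86 (edgeR adjusted p = 0.000212). In the treated groups it was 2.41 ± 0.81 for WBIR+MSC-EVs (adjusted p = 0.0164) and 3.37 ± 0.82 for RCI+MSC-EVs (adjusted p = 0.00237). Without RCI replicate 3 the RCI value was 2.97 ± 0.51 (edgeR adjusted p = 0.000184).

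The Il1a calls of the unburned groups leaned on the Sham samples, where 2 of the 3 raw counts were 13 and 11, with 95% Poisson intervals of 6.92 to 22.2 and 5.49 to 19.7. Without Sham replicate 1 the log2FC was 1.86 in WBIR (edgeR adjusted p = 0.0877) and 2.01 in WBIR+MSC-EVs (adjusted p = 0.0699), and without Sham replicate 2 it was 2.32 in WBIR (adjusted p = 0.0506). Leaving out single samples gave adjusted p-values from 0.000739 to 0.0877 in WBIR and from 0.00051 to 0.0699 in WBIR+MSC-EVs. Summed monocyte and macrophage markers moved the same way, from 2036 to 2825 in Sham to between 9906 and 35650.5 in irradiated samples. Of the 8 tested markers, 6 or 7 were called higher in each comparison with Sham, where 21.6% to 26.5% of all tested genes were. Ccr2, the receptor for Ccl2, was called lower in RCI (-1.35) and RCI+MSC-EVs (-1.18). No count of any gene in any sample was under 1, so the absence of zeros among these markers carries no information. Their part in the Il1a result was not tested.

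Il1b, the ligand that needs cleavage, was not called in any comparison. Scaled counts were 58.0, 345 and 89.8 in Sham, 116, 47.6 and 88.5 in WBIR, and 218, 189 and 96.8 in WBIR+MSC-EVs. They were 74.4, 77.9 and 925 in RCI, and 104, 116 and 202 in RCI+MSC-EVs. Every irradiated group overlapped Sham, in which replicate 2 was far above the others. The log2FC of RCI against Sham was 1.18 ± 0.87 (edgeR adjusted p = 0.238) and became -1.06 ± 0.66 (adjusted p = 0.169) without RCI replicate 3. Against Sham, WBIR was at -0.93 ± 0.88, WBIR+MSC-EVs at 0.06 ± 0.87 and RCI+MSC-EVs at -0.18 ± 0.87, with edgeR adjusted p-values of 0.357, 0.955 and 0.872. Il1b would have passed the threshold in RCI with median-of-ratios scaling, at a log2FC of 2.11 (edgeR adjusted p = 0.0483), and leaving out single samples gave adjusted p-values from 0.051 to 0.487.

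The parting of the ligands was measured within each sample, where scaling plays no role. In the 12 irradiated samples the ratio of Il1a to Il1b raw counts was 0.635 to 2.85, and in Sham it was 0.186, 0.078 and 0.385. No irradiated sample reached down to Sham. The mean log2 ratio was 0.51 ± 0.65 (SD, n = 12) after irradiation and -2.50 ± 1.15 (n = 3) in Sham, a difference of 3.00 with a two-sided exact permutation p of 0.002198, the smallest that 455 arrangements allow (adjusted p = 0.0198 over 9 ratio tests). The difference was 2.97 without RCI replicate 3 (adjusted exact permutation p = 0.0247). Since the probes of different genes can differ in efficiency, the ratio compares samples and not the amounts of the ligand mRNAs.

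Burned samples had a higher Il1a to Il1b ratio than the other irradiated samples, with mean log2 ratios of 0.91 ± 0.40 and 0.10 ± 0.62 (SD, n = 6 each). The difference of 0.80 had an exact permutation p of 0.0195 (adjusted p = 0.0351), but it did not stay under the threshold in 8 of the 12 tests that left out 1 irradiated sample. Those without RCI replicates 1, 2 and 3 gave differences of 0.78, 0.68 and 0.82, with adjusted exact permutation p-values of 0.0779, 0.0857 and 0.0584. The other samples whose removal ended the call were RCI+MSC-EVs replicate 3 (0.76), WBIR replicate 1 (0.82) and WBIR+MSC-EVs replicates 1, 2 and 3 (0.65, 0.66 and 0.84), and over all samples the adjusted p ranged from 0.0195 to 0.0857.

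Il1rn, the antagonist, varied with Il1b. Scaled counts were 14.9, 56.3 and 24.6 in Sham, 39.9, 24.3 and 47.2 in WBIR, and 112, 42.7 and 38.5 in WBIR+MSC-EVs. They were 23.3, 49.1 and 342 in RCI, and 42.0, 35.6 and 69.2 in RCI+MSC-EVs. All groups overlapped Sham. The test called Il1rn higher in RCI than in Sham, with a log2FC of 2.23 ± 0.84 (edgeR adjusted p = 0.0281), and that call rested on RCI replicate 3, without which the value was 0.28 ± 0.62 (adjusted p = 0.690). It was also lost without Sham replicate 1 (1.87, adjusted p = 0.102) and without Sham replicate 3 (2.09, adjusted p = 0.0854). Leaving out single samples gave edgeR adjusted p-values from 0.00551 to 0.690. The log2FC against Sham was 0.33 in WBIR, 1.03 in WBIR+MSC-EVs and 0.72 in RCI+MSC-EVs, and none of these was called.

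The antagonist was next set against its ligand within each sample. Il1rn over Il1b raw counts was 0.257, 0.163 and 0.274 in Sham and 0.226 to 0.631 in the irradiated samples. WBIR+MSC-EVs replicate 2, at 0.226, was the only irradiated sample inside the Sham range, and RCI replicate 3, at 0.370, lay between the other RCI samples at 0.313 and 0.631. The mean log2 ratio was -1.35 ± 0.42 (SD, n = 12) against -2.15 ± 0.41 (n = 3), a difference of 0.80 with an exact permutation p of 0.0154 (adjusted p = 0.0346). Without Sham replicate 2 it was 0.57 (adjusted exact permutation p = 0.148, in a range from 0.0124 to 0.148 over samples left out), and without RCI replicate 3 it was 0.81 (adjusted exact permutation p = 0.0433). Burned and unburned irradiated samples differed by -0.08 (exact permutation p = 0.755), or by -0.071 without RCI replicate 3.

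**Figure D2:**
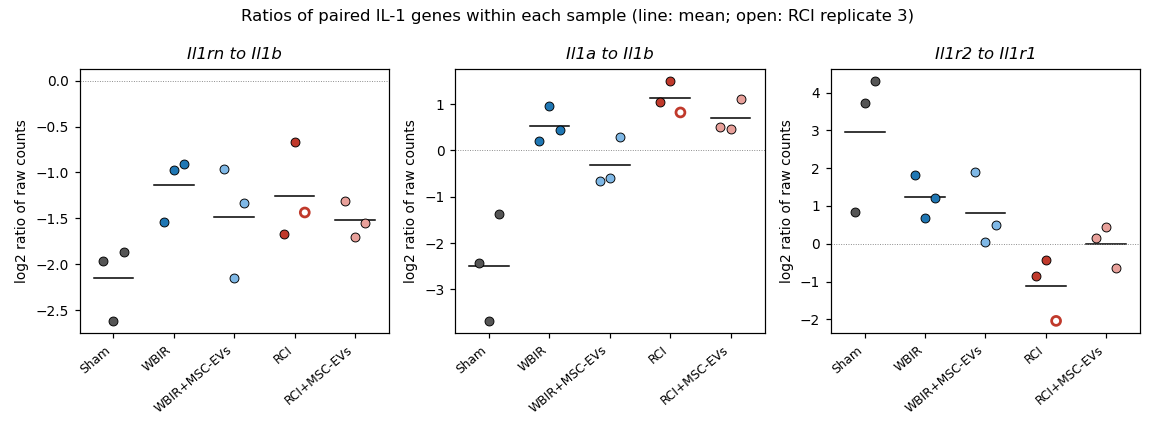
Log2 ratios of raw counts within each sample for Il1rn to Il1b, Il1a to Il1b and Il1r2 to Il1r1, with 1 point per sample, a line at the mean of the 3 samples and an open circle for RCI replicate 3. The Il1a to Il1b ratio of each irradiated sample lay above all Sham samples, and the Il1r2 to Il1r1 ratio was lowest in RCI.

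Il1r1, the signalling receptor, was higher in burned than in unburned irradiated samples, and its value in WBIR against Sham was not called. Scaled counts were 29.8, 19.6 and 17.7 in Sham, 14.2, 18.2 and 13.5 in WBIR, and 23.5, 18.5 and 22.5 in WBIR+MSC-EVs. They were 48.4, 50.3 and 98.4 in RCI, and 44.5, 43.7 and 38.3 in RCI+MSC-EVs. All 6 burned samples lay above the other 9 samples. Averaged over MSC-EV treatment, burned against unburned irradiated samples gave a log2FC of 1.55 ± 0.24 (edgeR adjusted p = 0.00379), in a comparison where 3.05% of the 426 tested genes were called. That share rests on 13 genes, a number that moved between 2 and 79 over single samples left out (79 without Sham replicate 2) and was 68 by DESeq2. Without RCI replicate 3 it was 1.34 ± 0.22 (adjusted p = 0.00432), and the call held under every alternative setting and with each sample left out.

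In untreated mice alone, Il1r1 was higher in RCI than in WBIR by 2.11 ± 0.35 (edgeR adjusted p = 0.00607) and was 1 of 3 genes called, 0.704% of those tested. The number called was 1 to 15 over single samples left out (15 without RCI replicate 1) and 28 by DESeq2. Without RCI replicate 3 the difference was 1.68 ± 0.32 (adjusted p = 0.0308). The call was lost without WBIR replicate 3 (2.02, edgeR adjusted p = 0.0729, in a range from 0.00462 to 0.0729 over samples left out). It was also lost with TMM scaling over the endogenous genes (2.03, adjusted p = 0.0618) and with median-of-ratios scaling (2.04, adjusted p = 0.0590). With MSC-EVs the difference between RCI and WBIR was 0.99 ± 0.34 (edgeR unadjusted p = 0.0120, adjusted p = 0.382), and 0.00% of the panel was called there, although 43 genes had an unadjusted p under 0.05 and DESeq2 called 2 genes, neither of them among the 7.

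Against Sham, Il1r1 rose by a log2FC of 1.54 ± 0.34 in RCI (edgeR adjusted p = 0.000987, or 1.12 ± 0.32 and 0.00625 without RCI replicate 3) and of 0.90 ± 0.34 in RCI+MSC-EVs (adjusted p = 0.0323). The latter did not pass with the 7 least varying reference genes (0.76, adjusted p = 0.0626) or with replicate number as a block within each injury (0.92, adjusted p = 0.0514). It also did not pass without RCI+MSC-EVs replicate 1 or 2 (0.85 and 0.87) or Sham replicate 2 or 3 (0.83 and 0.72), with adjusted p-values from 0.0135 to 0.109 over samples left out. WBIR was at -0.56 ± 0.36 and WBIR+MSC-EVs at -0.09 ± 0.35, and both signs turned with TMM scaling, to 0.0023 and 0.37. Counts were low, with 5 samples under 20 raw counts, and the lowest of 8 has a 95% Poisson interval of 3.45 to 15.8. Summed counts of 7 stromal and endothelial genes were 2497 to 3052 in RCI, 2003 to 2522 in RCI+MSC-EVs and 1426 to 2104 in the unburned irradiated samples. None of the 6 tested was called for the burn, and their part in the Il1r1 result was not tested.

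Il1r2, the decoy receptor, fell in all 4 irradiated groups. Scaled counts were 53.0, 262 and 353 in Sham, 50.2, 29.4 and 31.2 in WBIR, and 88.3, 19.1 and 31.9 in WBIR+MSC-EVs. They were 26.9, 37.2 and 23.9 in RCI, and 49.6, 59.8 and 24.5 in RCI+MSC-EVs. The untreated injured groups lay below all Sham samples, whereas WBIR+MSC-EVs and RCI+MSC-EVs each had 1 sample above Sham replicate 1. The log2FC against Sham was -2.60 ± 0.65 in WBIR and -2.93 ± 0.66 in RCI (edgeR adjusted p = 0.00257 and 0.00116). It was -2.40 ± 0.65 in WBIR+MSC-EVs and -2.31 ± 0.64 in RCI+MSC-EVs (edgeR adjusted p = 0.00498 and 0.00535). These 4 calls held under every alternative setting and with each sample left out. Without RCI replicate 3 the RCI value was -2.80 ± 0.78 (adjusted p = 0.00594).

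Neutrophil markers moved with Il1r2. The sum of 7 neutrophil genes was 7247 to 40530.2 in Sham and 1343 to 9223 after irradiation. Of the 6 tested, 4 to 6 were called lower in each comparison with Sham, where 41.3% to 46.9% of all tested genes were. Sham replicate 1 was the lowest Sham sample in both Il1r2 and the neutrophil sum, and WBIR+MSC-EVs replicate 1 the highest irradiated one. Ltf had a mean under 20 counts. Over the 15 samples, S100a8 was among the 3 genes most like Il1r2 (Pearson r = 0.889 on the log2 scale). The part of neutrophils in the fall of Il1r2 was not tested.

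The ratio of decoy to signalling receptor was lower in the 12 irradiated samples together than in Sham. Neither injury was tested on its own against Sham, and Sham replicate 1 lay within the range of the unburned irradiated samples. Il1r2 over Il1r1 raw counts was 1.78, 13.4 and 20.0 in Sham, 1.03 to 3.75 in the unburned irradiated samples, and 0.243 to 1.37 in the burned ones. The mean log2 ratio was 2.96 ± 1.87 (SD, n = 3) in Sham and 0.23 ± 1.14 (n = 12) after irradiation, a difference of -2.73 (exact permutation p = 0.00879, adjusted p = 0.0264). Without Sham replicate 2 it was -2.34 (adjusted p = 0.124) and without Sham replicate 3 it was -2.05 (adjusted exact permutation p = 0.139, from 0.0247 over samples left out). The difference was -2.52 without RCI replicate 3 (adjusted exact permutation p = 0.0433). The mean log2 ratio of burned minus unburned irradiated samples was -1.59 (exact permutation p = 0.00866, adjusted p = 0.0264), and this held with each sample left out, with -1.29 (adjusted exact permutation p = 0.0433) without RCI replicate 3.

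Il1rap, the shared accessory chain, was not called. Scaled counts were 46.4, 113 and 45.3 in Sham, 36.0, 34.4 and 28.6 in WBIR, and 88.3, 26.4 and 28.0 in WBIR+MSC-EVs. They were 41.3, 47.9 and 24.5 in RCI, and 49.6, 55.2 and 49.0 in RCI+MSC-EVs. WBIR lay below all Sham samples, at a log2FC of -0.997 ± 0.48 (edgeR adjusted p = 0.0779), while the other groups overlapped Sham. RCI was at -0.81 ± 0.47 against Sham (-0.56 ± 0.51 without RCI replicate 3), and the treated groups were at -0.60 ± 0.48 (WBIR+MSC-EVs) and -0.36 ± 0.47 (RCI+MSC-EVs). Without WBIR+MSC-EVs replicate 1, the sample with the lowest total count, edgeR called Il1rap lower in WBIR (-0.99, adjusted p = 0.0305) and in WBIR+MSC-EVs (-1.27, adjusted p = 0.0173), in ranges up to 0.372 and 0.865 over samples left out.

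Irak3, the brake on IRAK signalling, had calls and a sign that changed with RCI replicate 3. Scaled counts were 164, 191 and 314 in Sham, 106, 119 and 142 in WBIR, and 129, 129 and 123 in WBIR+MSC-EVs. They were 131, 123 and 975 in RCI, and 128, 143 and 332 in RCI+MSC-EVs. All WBIR and WBIR+MSC-EVs samples and RCI replicates 1 and 2 lay below all Sham samples. With 15 samples no comparison was called. The log2FC against Sham was -0.87 ± 0.65 in WBIR and 0.88 ± 0.64 in RCI. With MSC-EVs it was -0.82 ± 0.65 after WBIR and -0.16 ± 0.64 after RCI.

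Without RCI replicate 3 the same Irak3 values in the unburned groups had smaller errors and were called lower, at -0.87 ± 0.35 in WBIR (edgeR adjusted p = 0.0370) and -0.82 ± 0.35 in WBIR+MSC-EVs (adjusted p = 0.0482). RCI turned to -0.81 ± 0.39 (adjusted p = 0.0803). RCI+MSC-EVs replicate 3 was also the highest sample of its group in Il1a, Il1b, Il1rn and Irak3, and leaving out both samples gave Irak3 log2FC of -0.81 in RCI (edgeR adjusted p = 0.0220) and -0.73 in RCI+MSC-EVs (adjusted p = 0.0378). Over single samples left out, the adjusted p ranged from 0.0370 to 0.525 in WBIR and from 0.0482 to 0.582 in WBIR+MSC-EVs.

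The member calls were read against those over the whole panel. In WBIR, 2 of the 7 were called, where 68.5% of all tested genes were (21.6% higher and 46.9% lower). In WBIR+MSC-EVs it was 2 of 7 where 67.8% were (22.8% higher, 45.1% lower), in RCI 4 of 7 where 69.5% were (26.5% higher, 43.0% lower), and in RCI+MSC-EVs 3 of 7 where 65.3% were (23.9% higher, 41.3% lower). The median log2FC of the 7 genes was -0.87, -0.09, 1.18 and -0.16 in these comparisons, and that of all tested genes was -0.74, -0.61, -0.53 and -0.45. TMM scaling brought the median of all genes to -0.03, -0.05, 0.01 and -0.08 and left these 11 member calls in place. All 4 comparisons share the Sham samples.

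**Figure D3:**
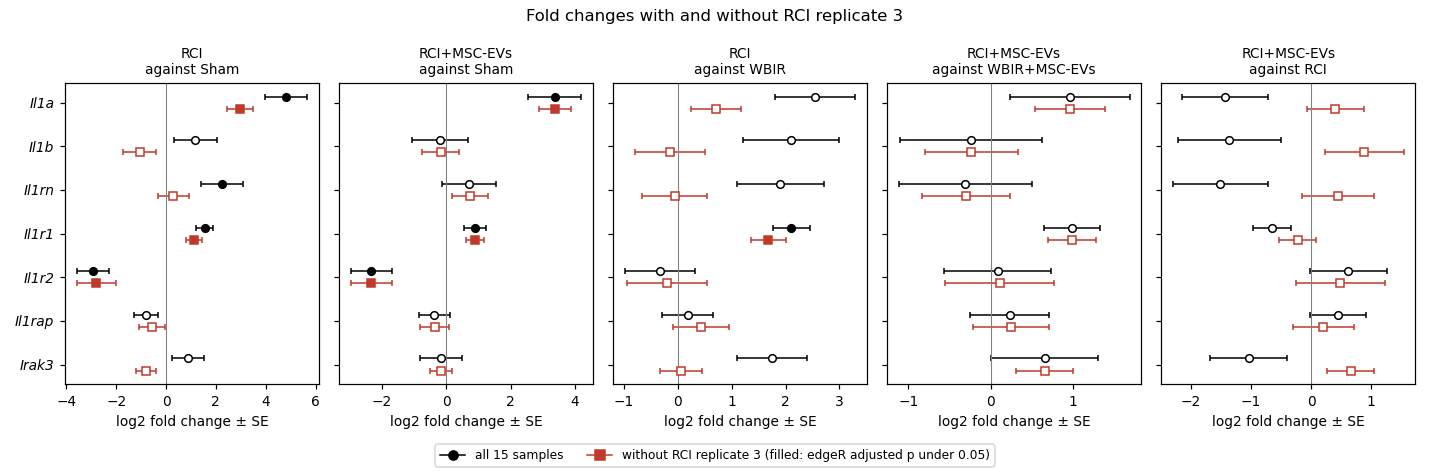
Log2 fold changes of the 7 IL-1 genes ± SE from edgeR in 5 comparisons that involve burned mice, with all 15 samples (black circles) and without RCI replicate 3 (red squares), filled where the adjusted p was under 0.05. Il1a, Il1r1 and Il1r2 kept their sign against Sham without that sample, Il1b and Irak3 in RCI crossed 0, and the Il1rn value in RCI shrank from 2.23 to 0.28.

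Burned and unburned irradiated samples were compared in the other members too. In Il1a they did not overlap, with or without RCI replicate 3, and the share of all tested genes with such separation was not counted. Averaged over MSC-EV treatment, Il1a had a log2FC of 1.76 ± 0.52 for burned against unburned (edgeR adjusted p = 0.0572), and 0.84 ± 0.32 without RCI replicate 3 (adjusted p = 0.103). It passed the threshold by DESeq2 (1.75, adjusted p = 0.00712), by edgeR with a replicate block within each injury (1.31, adjusted p = 0.0364), and by edgeR without RCI replicate 1 (1.99, adjusted p = 0.0284), RCI replicate 2 (1.96, 0.0498) or Sham replicate 2 (1.76, 0.0421), in a range up to 0.145. In untreated mice Il1a differed between RCI and WBIR by 2.55 ± 0.75 (edgeR adjusted p = 0.0951), and by 0.71 ± 0.47 without RCI replicate 3. DESeq2 called that comparison (2.55, adjusted p = 0.0102), as did edgeR without RCI replicate 1 (3.02, adjusted p = 0.0292, in a range up to 0.418). With MSC-EVs the Il1a difference was 0.97 ± 0.72. Il1b, Il1rn and Irak3 were 0.93 ± 0.61, 0.80 ± 0.57 and 1.20 ± 0.46 for the burn, and -0.19, -0.18 and 0.36 without RCI replicate 3, with no call by edgeR. Between RCI and WBIR the same 3 genes were at 2.11, 1.91 and 1.75, and at -0.14, -0.05 and 0.06 without that sample.

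No member was called between MSC-EV-treated and untreated mice by edgeR, where 0.00% of the panel was called in WBIR, in RCI, averaged over both injuries and for the difference between the injuries. At an unadjusted p under 0.05 the numbers of members were 0, 0, 0 and 1, against 11, 14, 14 and 11 genes of the panel. DESeq2 and limma called no member either. In RCI the log2FC with MSC-EVs was -1.44 ± 0.72 for Il1a, -1.36 ± 0.87 for Il1b, -1.51 ± 0.79 for Il1rn and -1.04 ± 0.64 for Irak3. Without RCI replicate 3 all 4 had the opposite sign, at 0.40 ± 0.47, 0.88 ± 0.65, 0.45 ± 0.60 and 0.66 ± 0.39, and all 3 RCI+MSC-EVs samples then lay above both RCI samples in Il1b. In WBIR the Il1b value was 0.99 ± 0.88.

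Il1r1 was the only member in which treated and untreated samples separated in both injuries. The share of all tested genes with such separation was not counted, so the separation of Il1r1 cannot be set against the panel. With MSC-EVs all 3 samples lay above the untreated ones in WBIR, with a log2FC of 0.47 ± 0.36, and all 3 lay below them in RCI, at -0.65 ± 0.32 (-0.23 ± 0.31 without RCI replicate 3). The difference between these effects was -1.12 (edgeR unadjusted p = 0.0360, adjusted p = 0.998), which did not pass the correction. With replicate number as a block within each injury it was -1.04 (edgeR unadjusted p = 0.0822). Averaged over the injuries, without that block, the value was -0.09. The MSC-EV contrasts of the ratios did not pass either, with differences of -0.30 for Il1rn to Il1b, -0.64 for Il1a to Il1b and 0.34 for Il1r2 to Il1r1 and exact permutation p-values of 0.236, 0.0974 and 0.632. These differences were -0.35, -0.64 and -0.086 without RCI replicate 3.

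Of 11 relatives of the IL-1 family, 7 were on the panel and 6 were tested. Il18, a cytokine related to IL-1β and matured by the same enzyme, rose from 239.7 ± 63.7 scaled counts (SD, n = 3) in Sham to 2503 ± 184 in WBIR and 2605 ± 255 in RCI. With MSC-EVs it was at 2835 ± 304 after WBIR and 2564 ± 73.2 after RCI. Its log2FC against Sham was 3.39 to 3.57, and its value for the burn, -0.04, was not called. The IL-18 receptor chains Il18r1 and Il18rap fell in all 4 comparisons with Sham, from -2.91 to -1.84, as did Sigirr, an inhibitory receptor of the family, from -3.38 to -2.75. Il1rl2, the IL-36 receptor, fell in WBIR (-1.76) and WBIR+MSC-EVs (-1.39). In WBIR+MSC-EVs the calls of Il18rap and Il1rl2 were lost with TMM scaling (-1.09 and -0.78). The alarmin Il33 was not called, but in WBIR+MSC-EVs it was called higher with TMM scaling (1.96, edgeR adjusted p = 0.0273) and with median-of-ratios scaling (1.95, adjusted p = 0.0229). The counts were 1 higher and 4 lower of 6 in each unburned group, and 1 higher and 3 lower in each burned one, with or without RCI replicate 3. Over the whole panel 21.6% to 26.5% were called higher and 41.3% to 46.9% lower.

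Of 19 genes of IL-1 receptor signalling, 15 were on the panel and tested. Against Sham, 1 rose and 11 fell in both WBIR and WBIR+MSC-EVs, 2 rose and 7 fell in RCI, and 3 rose and 7 fell in RCI+MSC-EVs. Over the whole panel 21.6% to 26.5% were called higher and 41.3% to 46.9% lower in these comparisons. The list's median log2FC was -0.86, -0.87, -0.50 and -0.79, beside panel medians of -0.74, -0.61, -0.53 and -0.45. With TMM scaling 6, 4, 5 and 6 of the 15 were called lower and 3 higher in each comparison, and the list's median was -0.25, -0.36, 0.055 and -0.48, so the RCI median changed sign. Leaving out RCI replicate 3 gave 12, 12, 9 and 9 called lower and 3 higher in each. Panel shares by direction were not counted with TMM scaling or without that sample, so those counts cannot be set against the panel. Myd88, the adaptor of the receptor, rose in all 4, by a log2FC of 0.85, 0.93, 1.39 (1.32 without RCI replicate 3) and 1.19. Those that fell in all 4 were the kinases Irak2 and Ikbkb, the IKK scaffold Ikbkg, the ligase Traf6, the NF-κB subunits Nfkb1 and Rela, and the NF-κB inhibitor Nfkbia. With TMM scaling Irak2, Ikbkb, Ikbkg and Traf6 kept all 4 calls, Nfkb1 kept none (-0.30 to -0.03), Rela kept the call in RCI+MSC-EVs, and Nfkbia lost the call in WBIR+MSC-EVs (-0.83). Tnfaip3, which restrains NF-κB, fell in WBIR (-2.26) and WBIR+MSC-EVs (-1.87), was at -0.16 in RCI (-1.82 and called without RCI replicate 3), and was 7.41-fold higher in RCI replicate 3 than in the other RCI samples. It was the gene most like Irak3, at a Pearson r of 0.895 over 15 samples and 0.894 over the 14 without RCI replicate 3.

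Only 2 of 7 genes of precursor processing were on the panel. Casp1, which cleaves the IL-1β and IL-18 precursors, rose in all 4 groups by 0.96 to 1.18 on the log2 scale, from 408 ± 94.3 scaled counts in Sham to means between 793 and 923. Casp8 was not called, at -0.15 to 0.03, but with TMM scaling it was called higher in all 4 (0.42 to 0.54). Of 15 genes that IL-1 is known to induce, 13 were on the panel and 8 of those, Il6 and Cxcl1 among them, had means under 20 counts. Of the 5 tested, 1 rose in WBIR and 3 in RCI, 2 rose in either treated group, and none fell. In the order used above, the unburned groups first and each treated group second, the numbers called higher were 3, 2, 5 and 3 with TMM scaling and 3 in each without RCI replicate 3, beside panel shares of 21.6%, 22.8%, 26.5% and 23.9% called higher with reference-gene scaling. Icam1 rose in the unburned groups (1.05 and 1.32). Ccl2 rose in RCI (4.97) and RCI+MSC-EVs (2.84). Tnf rose in RCI (1.75) and with the burn averaged over treatment (1.76, edgeR adjusted p = 0.0472), and its RCI mean was 111 ± 113 scaled counts with RCI replicate 3 and 45.5 ± 3.46 (n = 2) without it. Without that sample neither Tnf value was called (0.46 in RCI and 1.11 for the burn), and the burn value was not called with TMM scaling (1.67). Ccl2 was still called in RCI without it (3.10), but that fit kept the genes chosen by the filter on all 15 samples. Ccl2 passed that filter only through RCI replicate 3, since its mean without that sample was under 20 raw counts. The calls of Ccl2, and its place among the 5 tested genes in the numbers above, thus rest on that sample. The raw counts of Ccl2 were 3, 2 and 7 in Sham, and 31, 38 and 552 in RCI.

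Likeness of pattern across samples is a description, since samples share group and scaling. Over all 15 samples, the genes most like Il1a were Cfb, Mapkapk2 and Batf (Pearson r = 0.964, 0.958 and 0.951), and over the 14 without RCI replicate 3 they were Mapkapk2, Psmb7 and Myd88 (0.968, 0.964 and 0.953). Il1b was most like Il1rn over 15 samples (r = 0.886). Without RCI replicate 3 it was most like Il7 (0.769) and Il12rb1 (0.76), with Il1rn next (0.752), and Il1rn was most like Il33 (0.841). Il1a and Il1b had r = 0.528 over 15 samples and 0.141 over 14. Irak3 and Il1b went from 0.701 to 0.282. Il1r1 was most like Ccl9 (0.865) over 15 samples and Bcap31 (0.880) over 14, and Il1rap was most like Card9 (0.937) over both.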

How the data were processed

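Spleen cell RNA from 15 samples in 5 groups was analysed. According to the methods, the authors lysed red blood cells, hybridised the RNA to the panel, counted barcodes and normalised with nSolver 4.0. The deposited table holds raw counts of barcodes, before that normalisation, as read from whole numbers with unequal totals. Background probes were not used here. Groups and replicate numbers came from the labels. The 7 genes and the gene lists were chosen with earlier results of these data known. Named genes were all 7 members, the 3 tested genes most correlated with each (log2 scaled counts with a pseudocount of 1), and called genes of the lists. Not all of these are printed.

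Counts were scaled to the geometric mean of the 14 reference genes. Of 547 endogenous genes, the 426 whose mean reached 20 counts were tested with edgeR 4.0.16 in R 4.3.3 (robust quasi-likelihood test, all 15 samples, 11 comparisons, two-sided). P-values were adjusted by Benjamini-Hochberg over the 426 genes, and calls were made at an adjusted p under 0.05. SE was the log2FC over the root of F. Log2 ratios within samples were compared by two-sided exact permutation tests, adjusted over 9. The tests were tested on simulated data. Poisson intervals cover counting error only. Alternatives were TMM, median-of-ratios and 7-gene scaling, no filter, DESeq2 1.42.0, limma 3.58.1 (pseudocount 10), replicate blocks and leaving out each sample, and for ratios a pseudocount of 5 or a background of 20. For the gene lists, the alternatives were chosen after seeing the data.

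Replicate numbers are shared by all groups and come from the labels, which do not say what they mark. Same-numbered treated and untreated samples of an injury deviated together in all pairs (r from 0.243 to 0.677). Some differently numbered samples of an injury did so as closely. WBIR+MSC-EVs replicate 3 had r = 0.510 with WBIR replicate 2 and 0.243 with WBIR replicate 3. RCI+MSC-EVs replicate 2 had r = 0.3465 with RCI replicate 1 and 0.331 with RCI replicate 2. Other differently numbered ones went the other way, down to -0.596, so the numbers may or may not mark pairs. Over all groups the median r of same-numbered samples was 0.0075, beside 0.021 for differently numbered ones. No main test was paired, and replicate blocks were used only as alternatives.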

Additional observations from a re-analysis of the deposited data

Results flagged for a closer look

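In 5 of the 7 genes every MSC-EV-treated sample lay above the untreated mean in WBIR and below it in RCI. Of the 426 tested genes 21 (4.93%) had this pattern with all samples, and 11 (2.58%) when the RCI mean was taken without RCI replicate 3. RCI replicate 3 raised the untreated RCI mean in Il1a, Il1b, Il1rn and Irak3. The difference between the effects (RCI minus WBIR) was -1.58 on the log2 scale for Il1a, -2.35 for Il1b, -2.21 for Il1rn, -1.12 for Il1r1 and -1.09 for Irak3. The difference itself was tested by edgeR's interaction term, with unadjusted p-values of 0.142, 0.0782, 0.0721, 0.0360 and 0.253 and an adjusted p of 0.998 for each, so none passed. When the untreated RCI mean was taken without RCI replicate 3, the numbers of treated RCI samples below it were 2 for Il1a, 0 for Il1b, 1 for Il1rn, 3 for Il1r1 and 0 for Irak3. The pattern of opposite movement thus held without that sample in Il1r1 alone, for which the interaction was -0.69 (edgeR unadjusted p = 0.133).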

How the results depend on the processing

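Of 1151 recomputed log2FC of single genes, 1077 kept their direction and side of the threshold, and none of the 42 that changed sign was called with all 15 samples. For RCI against WBIR the number of members called was 0 with TMM scaling, 0 with median-of-ratios scaling and 2 with DESeq2, and DESeq2 also called 2 for the burn averaged over treatment. With TMM scaling the log2FC against Sham turned to 0.36 for Il1b, 0.042 for Il1rap and 0.15 for Irak3 in RCI+MSC-EVs, and for Il1r1 to 0.0023 in WBIR and 0.37 in WBIR+MSC-EVs. With median-of-ratios scaling these 5 values were 0.34, 0.022, 0.12, 0.0052 and 0.39, and with limma Il1b in RCI+MSC-EVs was 0.11. The Il1rn call in RCI was lost with limma (1.20, adjusted p = 0.133). With a background of 20 counts subtracted, the Il1a to Il1b difference for the burn was 0.91 (adjusted exact permutation p = 0.0818), and the MSC-EV differences turned to 0.051 for Il1rn to Il1b and -0.50 for Il1r2 to Il1r1.

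With the replicate number as a block, the ratio differences were the same by construction, at 0.80 for Il1rn to Il1b, 3.00 for Il1a to Il1b and -2.73 for Il1r2 to Il1r1 after irradiation and at 0.80 for Il1a to Il1b and -1.59 for Il1r2 to Il1r1 with the burn. Permuting within blocks raised their adjusted exact permutation p to between 0.054 and 0.0667, and far fewer arrangements are possible there. The block also ended the Il1rn call in RCI (1.84, edgeR adjusted p = 0.0814). Replicate number as a block within each injury, chosen after seeing the data, called 0 members in the MSC-EV comparisons, as did the fit without it. In the other comparisons that block ended the calls of Il1rn in RCI (1.48, edgeR adjusted p = 0.0640) and Il1r1 in RCI+MSC-EVs (0.92, adjusted p = 0.0514) against Sham and added Il1a for the burn, which gave 2 members there. No other member call changed with either block.

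Leaving out single samples, or RCI and RCI+MSC-EVs replicates 3 together (chosen after seeing the data), gave 1 to 3 calls for WBIR and 1 to 3 for WBIR+MSC-EVs against Sham, 0 to 2 for RCI against WBIR and 1 to 2 for the burn. Ratio differences ranged from 0.65 to 0.97 (Il1a to Il1b, burn), -3.80 to -2.05 (Il1r2 to Il1r1, irradiated), 0.57 to 0.94 (Il1rn to Il1b, irradiated), -0.25 to 2.08e-05 (Il1rn to Il1b, burn) and -0.086 to 0.69 (Il1r2 to Il1r1, MSC-EVs). Log2FC against Sham that changed sign ranged, for Il1b, from -1.35 to 0.18 in WBIR, -0.36 to 1.16 in WBIR+MSC-EVs, -1.06 to 2.29 in RCI and -0.60 to 0.93 in RCI+MSC-EVs. They ranged from -0.042 to 0.91 for Il1rn in WBIR, -0.26 to 0.20 for Il1r1 in WBIR+MSC-EVs, -0.59 to 0.16 for Il1rap in RCI+MSC-EVs, and for Irak3 from -0.81 to 1.31 in RCI and -0.73 to 0.18 in RCI+MSC-EVs. For MSC-EVs in RCI the ranges were -2.13 to 0.40 (Il1a), -1.84 to 0.88 (Il1b), -2.01 to 0.45 (Il1rn) and -1.61 to 0.66 (Irak3), and for Il1r1 averaged over injuries -0.18 to 0.12. For RCI against WBIR they were -0.14 to 2.59 (Il1b) and -0.053 to 2.40 (Il1rn), and for the burn -0.36 to 1.18 (Il1b) and -0.34 to 1.09 (Il1rn). RCI replicate 3, or Sham replicate 2 for Il1b, set most of these ends. Counts under 20 limit Il1r1 and the Sham values of Il1a, and 3 samples per group limit the rest.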
